A study of Homo sapiens with 12 samples.

Results

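Nuclear receptors are transcription factors that bind DNA as monomers, homodimers or partners of the retinoid X receptors, and many of them change from repression to activation when a small lipophilic ligand enters the ligand-binding pocket. Others have no known ligand, and the amount of protein made is 1 of the ways in which some of them are controlled. The genes described here are 39 members of this superfamily other than the retinoic acid and retinoid X receptors, picked as a family by gene symbol out of 58347 genes counted in each sample. They were measured in A375, an established line of human melanoma cells with mutant BRAF, treated for 8 h with DMSO vehicle, tretinoin (all-trans retinoic acid, the ligand of the retinoic acid receptors), vemurafenib (an inhibitor of mutant BRAF kinase) or the vemurafenib + tretinoin combination. The labels list 5 µM for every group, including the vehicle, and each group had 3 replicates, 12 samples in all. A375 is 1 line, so the values describe that line and not melanoma in general.

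Retinoid X receptors are shared partners of the thyroid hormone, vitamin D, peroxisome proliferator-activated (PPAR) and liver X (LXR) receptors as well as of the retinoic acid receptors, each in its own dimer. The NR4A receptors are immediate early genes that respond to growth factor and MAP kinase signaling, the pathway that vemurafenib blocks. The REV-ERB and ROR receptors repress and activate the same clock elements, and the COUP-TF receptors (NR2F genes) are orphan regulators of neural crest and mesenchymal development.

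Of the 39 genes, 27 passed the filter on low counts and were tested. The other 12 did not pass: the bile acid receptor NR1H4, the xenobiotic receptor NR1I2, HNF4A, NR2E1, NR2E3, the estrogen receptors ESR1 and ESR2, the estrogen-related receptors ESRRB and ESRRG, the progesterone receptor PGR, NR5A1 and NR0B2. Their highest count in any sample was 12, for ESRRG, and at most 7 for the others, so changes in these genes were not detectable at this depth. Total counts per sample were between 13510235 and 21534377. The lowest was that of tretinoin replicate 1, which also lay farthest from its own group (mean log-scale distance 63.15, against 40.9 to 54.67 for the other samples). Of 8 melanocyte and melanoma markers, 4 passed the filter, among them MITF with 245 to 658 counts. TYR had 0 to 1 count, and SOX10 was listed at 0 in every sample. Of SOX10's 3710 exon bases, 89 are shared with POLR2F on the other strand, and why it is listed at 0 was not tested. Of 8 markers of blood, epithelial, endothelial and fibroblast cells, 7 passed. Their summed level was 23.6 to 28 CPM (counts normalized to a common library size) in DMSO, 32.3 to 35.3 in tretinoin, 41.4 to 45.5 in vemurafenib and 40.3 to 49.2 in the combination. Its members did not move together. CDH5, an endothelial cadherin, went from 4.56 ± 0.533 CPM (SD, n = 3) in DMSO to 13.4 ± 2.22 with tretinoin and 0.137 ± 0.0741 with vemurafenib, and the keratin KRT14 from 11.02 ± 0.956 to 26.1 ± 1.1 with vemurafenib. The melanocyte and melanoma markers summed to 27.9 to 32.8 CPM in DMSO and 26.2 to 30.9 in tretinoin. Their sum was 43.9 to 46.8 in vemurafenib and 40.2 to 42.2 in the combination. The 4 that passed the filter did not move together. From DMSO to vemurafenib MITF went from 17.6 ± 1.88 to 32.4 ± 0.714 CPM and S100A1 from 1.99 ± 0.0616 to 2.43 ± 0.565. S100B went from 9.08 ± 0.568 to 9.22 ± 0.402, and PMEL from 1.16 ± 0.36 to 0.79 ± 0.291. The part of these marker changes in the results below was not tested.

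The promoters of 3 genes are shown first because they carry the 3 patterns described later: NR2F1 rose with vemurafenib, NR5A2 rose with vemurafenib and further when tretinoin was added, and PPARG moved in opposite directions with the 2 drugs. Each is 300 bases, from 250 before to 50 after the RefSeq gene start, on the plus strand of GRCh38.p14, and capitals mark motif matches. The positions are NR2F1 chr5:93582972-93583271, NR5A2 chr1:200027460-200027759 and PPARG chr3:12287118-12287417.
NR2F1: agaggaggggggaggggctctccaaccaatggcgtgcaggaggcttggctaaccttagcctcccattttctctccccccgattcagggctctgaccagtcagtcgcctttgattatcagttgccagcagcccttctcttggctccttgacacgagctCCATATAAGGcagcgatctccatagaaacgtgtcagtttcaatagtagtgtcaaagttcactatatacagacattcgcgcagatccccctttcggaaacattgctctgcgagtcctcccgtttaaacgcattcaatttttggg
NR5A2: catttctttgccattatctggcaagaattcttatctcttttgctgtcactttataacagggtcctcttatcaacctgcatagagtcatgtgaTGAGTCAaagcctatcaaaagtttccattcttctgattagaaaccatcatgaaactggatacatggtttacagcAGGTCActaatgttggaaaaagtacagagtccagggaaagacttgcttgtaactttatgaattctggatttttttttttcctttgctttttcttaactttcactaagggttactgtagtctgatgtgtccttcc
PPARG: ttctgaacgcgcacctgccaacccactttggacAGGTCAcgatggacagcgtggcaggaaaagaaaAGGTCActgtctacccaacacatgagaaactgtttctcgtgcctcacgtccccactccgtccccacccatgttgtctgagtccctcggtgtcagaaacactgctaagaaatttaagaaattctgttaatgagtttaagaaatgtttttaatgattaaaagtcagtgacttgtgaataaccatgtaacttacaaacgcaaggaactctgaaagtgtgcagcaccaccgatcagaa

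The capitals in the NR2F1 promoter are a CArG box, the element bound by serum response factor, at 93 to 84 bases before the start. A CArG box occurs in 1.29% of 35116 RefSeq promoters of this length. NR5A2 holds an AP-1 site (TGANTCA, 7.71% of promoters) at 158 to 152 bases before the start and a nuclear receptor half-site (AGGTCA, 13.8% of promoters) at 84 to 79. PPARG holds a pair of half-sites, at 217 to 212 and at 184 to 179 bases before the start. In all, 8 motifs were searched, on both strands. A promoter was found for 34 of the 39 genes and for 23 of the 27 tested, and of those 23 the half-site was in 3 (NR1H3, NR5A2 and PPARG), the AP-1 site in 3 and the CArG box in 1. The ETS core was in 3 (10.3% of promoters) and the E-box in 2 (7.26%). Some windows lie inside the annotated span of their gene. Among them are that of NR1H2, with the ETS core, and that of NR2F2, with an E-box (window chr15:96332315-96332614, gene chr15:96325938-96340263). The cAMP response element core (1.85%) and its short form (2.47%) were in 1 each. The retinoic acid response element, a direct repeat of half-sites spaced by 5 bases (0.0854% of promoters), was in 0 of the 23. These matches describe letters in 1 window at 1 annotated start, and which start the cells used was not tested.

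Levels among the 27 tested genes spanned more than 3 orders of magnitude per kb of exon. In DMSO the highest mean level was that of NR2F6 (EAR2), an orphan COUP-TF relative, at 76.2 ± 4.33 CPM per kb (SD, n = 3). The sterol receptor NR1H2 (LXR beta) followed at 36.8 ± 2.76 and the estrogen-related receptor ESRRA, a regulator of mitochondrial genes, at 32.3 ± 0.772. PPARG (14.6 ± 1.1) and NR4A1 (13.4 ± 0.714) were next, and their ranges overlapped. The glucocorticoid receptor NR3C1 stood at 9.55 ± 1.3 and NR1D2 at 7.43 ± 0.803, with overlapping ranges. VDR (5.19 ± 0.425) and THRA (4.83 ± 0.215) also overlapped. The lowest was NR3C2, the mineralocorticoid receptor, at 0.0314 ± 0.00866. In the combination the order at the top changed: NR3C1 was in place 3 at 18.2 ± 1.12 CPM per kb, though its range overlapped that of ESRRA in place 4. NR4A1 was in place 13 at 2.8 ± 0.195, with a range that overlapped those of NR2C1 and NR2C2.

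**Figure D1:**
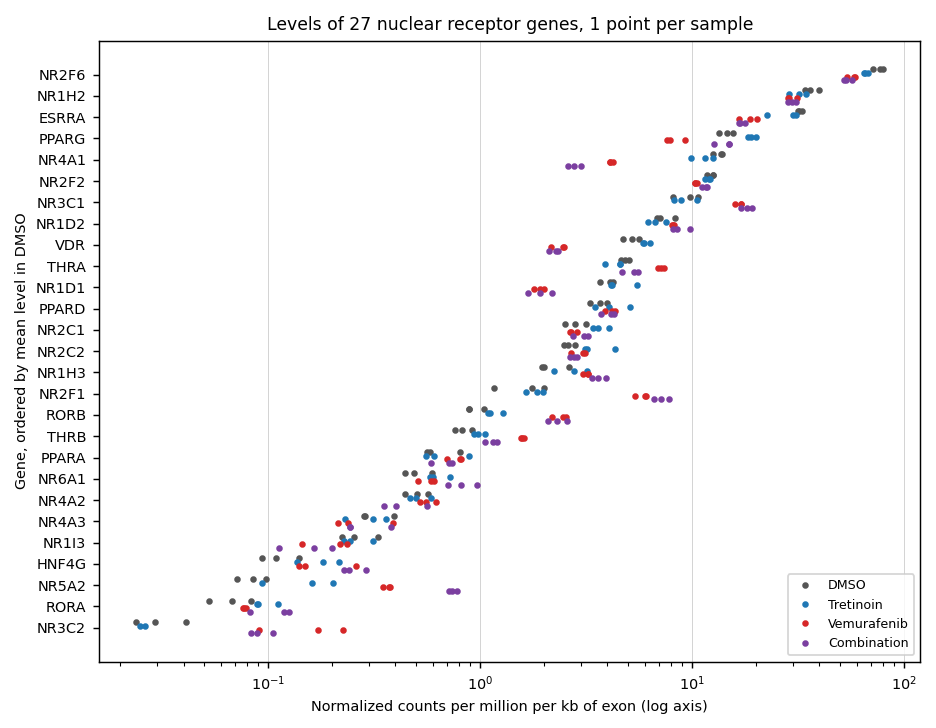
Levels of the 27 tested genes in CPM per kb of exon, on a log axis, with 1 point per sample colored by group and genes ordered by their mean in DMSO. NR2F6 was highest and NR3C2 lowest in DMSO, and the 1 sample in which NR3C2 had 0 counts (tretinoin replicate 1) cannot be drawn on a log axis.

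Counts of called genes, at an adjusted p below 0.05 by edgeR's quasi-likelihood test, were larger with vemurafenib than with tretinoin, as they were over all genes. Against DMSO, vemurafenib raised 8 of the 27 genes (26.4% of all 16740 tested genes rose) and lowered 8 (26.3% of all fell). The risers include NR3C2 and NR5A2, which had few counts in DMSO and passed the filter through other groups, and 6 rose among genes with at least 10 counts in every sample. Tretinoin raised 3 (3.48% of all) and lowered 0 (2.2% of all), with 4 lower at an unadjusted p below 0.05 and 1 lower by DESeq2. The 3 became 1 in a fit to the compared groups only and 0 to 4 when single samples were left out, with 0 without DMSO replicate 2 and 1 without tretinoin replicate 2. The combination raised 11 (27.1% of all) and lowered 6 (26.5% of all), and 8 rose among genes with at least 10 counts in every sample. The median log2 fold change of the 27 was 0.17 with tretinoin, 0.16 with vemurafenib and 0.09 with the combination, against 0.01, 0.02 and 0.03 over all tested genes. These 3 comparisons share their DMSO samples. PPARA, PPARD, NR1I3, NR4A2 and NR4A3 were called in none of the 6 comparisons.

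**Figure D2:**
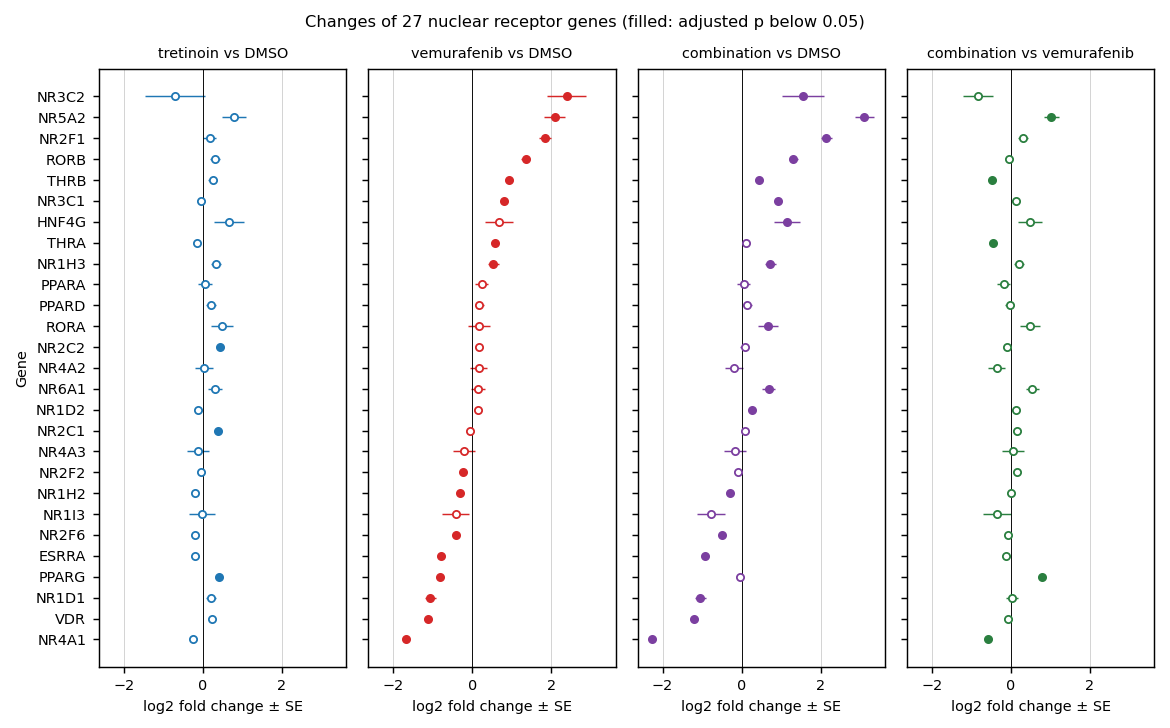
Log2 fold change with its standard error for the 27 tested genes in 4 comparisons, ordered by the change with vemurafenib. Filled points passed the adjusted p threshold of 0.05. Against DMSO these were 3 genes with tretinoin (5.68% of all tested genes were called), 16 with vemurafenib (52.6%) and 17 with the combination (53.6%). Against vemurafenib, 5 passed with the combination (4.47% of all).

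Among the NR4A receptors, NR4A1 (NUR77, chr12:52022832-52059507) fell most of all 27 genes with vemurafenib. Its level in the 3 DMSO samples was 91.8, 101.3 and 100.2 CPM, and in the tretinoin samples 91.9, 84.0 and 72.6. Vemurafenib samples had 30.2, 31.0 and 30.0 CPM, and combination samples 19.1, 20.2 and 21.9. The vemurafenib and combination samples lay below every DMSO and tretinoin sample, and every combination sample lay below every vemurafenib sample. The fall was 3.22-fold with vemurafenib (log2 fold change -1.69, SE 0.09, adjusted p = 3.64e-11) and 4.78-fold with the combination (-2.26, SE 0.09, adjusted p = 8.41e-13). Adding tretinoin to vemurafenib lowered it 1.49-fold further (-0.57, SE 0.09, adjusted p = 0.000543). With tretinoin alone its log2 fold change was -0.24 (SE 0.08, adjusted p = 0.0903). Its relatives NR4A2 and NR4A3 were far lower in level, at 0.506 ± 0.0629 and 0.323 ± 0.0609 CPM per kb in DMSO. Their log2 fold changes with vemurafenib were 0.16 (SE 0.22) and -0.20 (SE 0.28) and did not pass the test. Of NR4A1's exon bases, 10.3% are shared with a noncoding RNA gene on the other strand, and union counting drops fragments there. The samples are bulk cultures, so a change in the number of cells with a transcript and a change in transcripts per cell cannot be told apart.

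The vitamin D receptor VDR (chr12:47841537-47943048) also fell with vemurafenib. DMSO samples had 31.8, 27.02 and 29.6 CPM and tretinoin samples 33.3, 36.0 and 33.9, while vemurafenib samples had 14.1, 13.95 and 12.3 and combination samples 13.2, 13.1 and 12.1. The samples with vemurafenib did not overlap those without it. The fall was 2.18-fold with vemurafenib (-1.13, SE 0.09, adjusted p = 1.36e-08) and 2.31-fold with the combination (-1.21, SE 0.09, adjusted p = 5.14e-09). Tretinoin samples all lay above the DMSO samples, with a log2 fold change of 0.22 (SE 0.09) that did not pass the test (adjusted p = 0.129). Of 6 vitamin D enzymes and VDR targets, 2 were tested. CYP2R1, a vitamin D 25-hydroxylase, rose with vemurafenib (log2 fold change 0.71, SE 0.14), and CYP27B1, which makes the active hormone, was not called with any treatment against DMSO. CYP24A1, the classical VDR target that degrades the hormone, did not pass the filter.

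The REV-ERB gene NR1D1, a ligand-regulated clock repressor, fell with vemurafenib too. DMSO samples had 11.8, 11.4 and 10.2 CPM, tretinoin samples 15.3, 11.6 and 11.7, vemurafenib samples 5.56, 5.00 and 5.35, and combination samples 4.68, 5.34 and 6.07. The samples with vemurafenib did not overlap those without it, and tretinoin replicate 1 was the highest of all. The fall was 2.1-fold with vemurafenib (-1.07, SE 0.14, adjusted p = 5e-06) and 2.06-fold with the combination (-1.04, SE 0.14, adjusted p = 5.23e-06). NR1D1 (chr17:40092787-40100725) and THRA (chr17:40058290-40093867) overlap on opposite strands in 263 exon bases, 9.49% of NR1D1's exon length, where reads of the 2 genes cannot be told apart. NR1D2, the other REV-ERB gene, had a log2 fold change of 0.13 (SE 0.09) with vemurafenib and rose with the combination (0.26, SE 0.09, adjusted p = 0.0257). That call was lost without DMSO replicate 1 (adjusted p = 0.0985), DMSO replicate 3 (0.129) or combination replicate 3 (0.166).

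The ROR receptors, which activate the elements that REV-ERB represses, included the riser RORB (chr9:74497365-74693177). DMSO samples had 8.51, 10.1 and 8.50 CPM and tretinoin samples 12.3, 10.7 and 10.5, against 23.6, 24.3 and 20.9 with vemurafenib and 20.2, 22.1 and 24.7 with the combination. No sample with vemurafenib overlapped one without it. RORB rose 2.55-fold with vemurafenib (1.35, SE 0.11, adjusted p = 1.92e-08) and 2.48-fold with the combination (1.31, SE 0.11, adjusted p = 2.41e-08). RORA, at 0.068 ± 0.0153 CPM per kb in DMSO, passed the test with the combination (0.66, SE 0.26, adjusted p = 0.0379). DESeq2 did not call RORA (adjusted p = 0.068), nor did the fit without DMSO replicate 1 (0.14), DMSO replicate 2 (0.0787), combination replicate 1 (0.0995) or combination replicate 2 (0.142).

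Of 13 clock genes around REV-ERB and ROR, 12 were tested, and 6 rose (26.4% of all tested genes rose) and 3 fell (26.3% of all) with vemurafenib. Their median log2 fold change was 0.22, against 0.02 over all tested genes. The output factor DBP rose (1.90, SE 0.13) and so did the period gene PER3 (1.54, SE 0.24). NPAS2, a partner of BMAL1 and a known REV-ERB and ROR target, fell (-2.23, SE 0.10), and the repressor CRY1 fell (-0.91, SE 0.08). BMAL1 itself (ARNTL), the best known target of both receptor types, was not called with any treatment against DMSO. With tretinoin 1 of the 12 was called (3.48% of all rose), the repressor BHLHE40, which rose (0.89, SE 0.11, adjusted p = 4.25e-05).

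Of the COUP-TF receptors, NR2F1 (COUP-TF1, chr5:93583224-93594615) was the abundant riser. DMSO samples had 8.64, 7.63 and 5.01 CPM and tretinoin samples 8.58, 7.15 and 8.05. Vemurafenib samples had 26.0, 23.2 and 26.2 CPM and combination samples 33.6, 30.8 and 28.7. Every sample with vemurafenib lay above every sample without it, and every combination sample above every vemurafenib sample. The rise was 3.58-fold with vemurafenib (1.84, SE 0.14, adjusted p = 8.47e-09) and 4.42-fold with the combination (2.14, SE 0.14, adjusted p = 9.74e-10). The step from vemurafenib to the combination, 0.30 (SE 0.12), did not pass the test (adjusted p = 0.225). The other COUP-TF genes were higher in level per kb in DMSO and moved the other way. NR2F6 fell with vemurafenib (-0.42, SE 0.07, adjusted p = 4.27e-05). NR2F2 (COUP-TF2) fell by 0.24 (SE 0.06, adjusted p = 0.00309), a call lost when libraries were scaled by total counts alone (log2 fold change -0.05, adjusted p = 0.542).

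NR5A2 (LRH-1, chr1:200027602-200177424), a receptor for phospholipids known from liver and embryonic stem cells, rose from a very low level. DMSO samples had 10, 8 and 14 counts (0.644, 0.540 and 0.739 CPM) and tretinoin samples 21, 21 and 13 (1.54, 1.22 and 0.712 CPM). Vemurafenib samples had 2.65, 2.84 and 2.82 CPM and combination samples 5.61, 5.44 and 5.89. The DMSO and tretinoin ranges overlapped, and the vemurafenib and combination samples each stood apart. NR5A2 rose 4.24-fold with vemurafenib (2.08, SE 0.26, adjusted p = 3.15e-06) and 8.63-fold with the combination (3.11, SE 0.24, adjusted p = 6.5e-09). Adding tretinoin to vemurafenib raised it 2.03-fold (1.02, SE 0.18, adjusted p = 0.00167). With tretinoin alone the log2 fold change was 0.79 (SE 0.31, adjusted p = 0.134). The interaction of the drugs was 0.23 (SE 0.37, adjusted p = 0.797). From the summed counts, 349 in the combination against 32 in DMSO, the ratio was 8.69 with an exact 95% interval for counting error only of 6.04 to 12.9.

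NR3C2 and HNF4G were also near the floor. NR3C2 had 3, 4 and 3 counts in DMSO and 0, 3 and 3 in tretinoin, against 22, 31 and 10 in vemurafenib and 10, 15 and 13 in the combination. In CPM these were 0.193, 0.270 and 0.158 in DMSO, 0, 0.174 and 0.164 in tretinoin, 1.14, 1.49 and 0.601 in vemurafenib and 0.550, 0.697 and 0.589 in the combination. The vemurafenib samples did not overlap DMSO, and neither did the combination samples. Its log2 fold change was 2.39 with vemurafenib (SE 0.49, adjusted p = 0.000583) and 1.56 with the combination (SE 0.54, adjusted p = 0.0207). The ratio of summed counts was 5.47 with vemurafenib, with an exact interval of 2.79 to 12. The combination call was lost without DMSO replicate 1 (adjusted p = 0.057), DMSO replicate 3 (0.0851) or combination replicate 2 (0.0628). HNF4G, a fatty acid-binding receptor of gut and kidney, had 0.451, 0.676 and 0.528 CPM in DMSO, 0.660, 1.05 and 0.876 in tretinoin, 1.25, 0.674 and 0.721 in vemurafenib and 1.10, 1.16 and 1.40 in the combination. The vemurafenib range overlapped that of DMSO, and the combination samples lay above all DMSO samples. HNF4G rose with the combination (1.15, SE 0.34, adjusted p = 0.0085). NR3C2, NR5A2 and HNF4G had few counts in DMSO, under 10 in at least 1 sample, and passed the filter through the groups in which they were higher, so their calls are no support for a count over the family. The family counts above are given with and without such genes.

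The glucocorticoid receptor NR3C1 is the steroid receptor with a high level in these cells. It rose 1.76-fold with vemurafenib (0.81, SE 0.10, adjusted p = 2.18e-06) and 1.91-fold with the combination (0.93, SE 0.10, adjusted p = 4.09e-07), and its log2 fold change with tretinoin was -0.04 (SE 0.10). All 7 of its listed target genes were tested. With vemurafenib 3 rose (26.4% of all tested genes) and 2 fell (26.3% of all), with a median log2 fold change of 0.33. With the combination 2 rose (27.1% of all) and 3 fell (26.5% of all), with a median of -0.23. ZBTB16, a zinc finger factor with 2 to 4 counts in DMSO that was tested only through the groups in which it was high, rose with vemurafenib (2.46, SE 0.59, adjusted p = 0.00205), and TSC22D3 (GILZ), an anti-inflammatory mediator, rose (0.97, SE 0.16). The kinase gene SGK1 fell (-0.87, SE 0.09) and the metallothionein MT2A fell (-0.48, SE 0.08). With tretinoin 0 of the 7 were called by edgeR and 0 by DESeq2, and 1 was lower at an unadjusted p below 0.05.

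**Figure D3:**
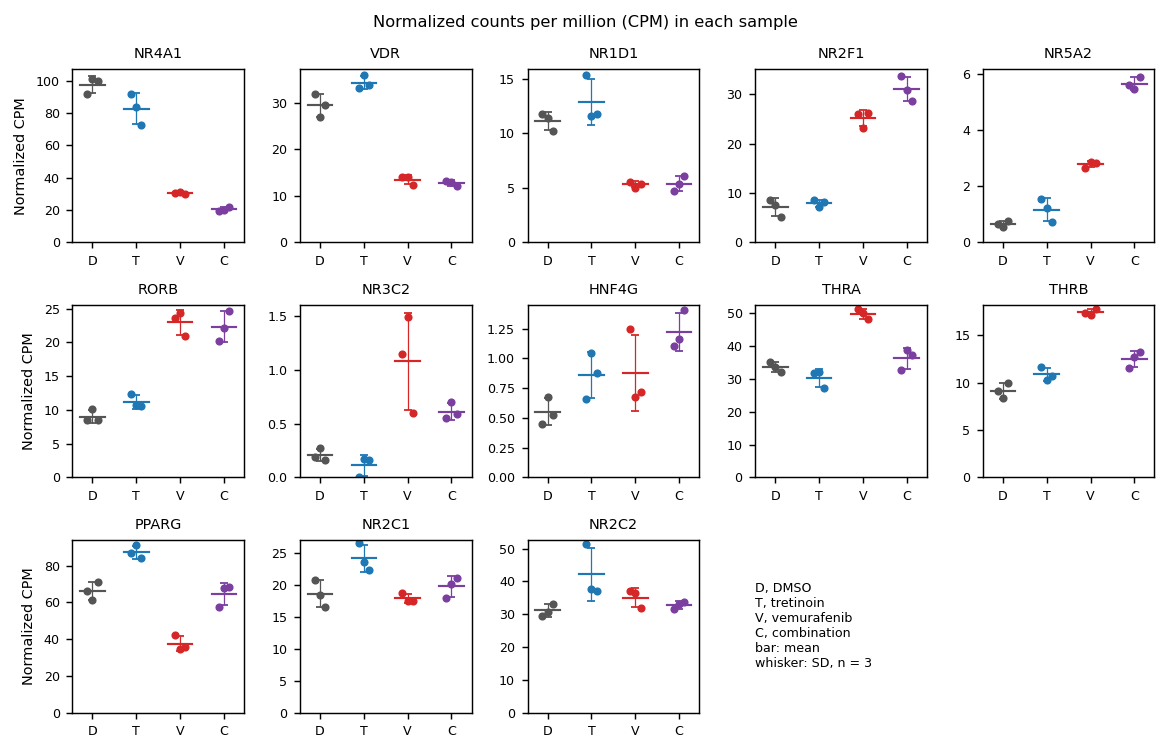
Normalized CPM in each of the 12 samples for the 13 genes that were called with tretinoin, on adding tretinoin to vemurafenib or in the interaction, or were called with an absolute log2 fold change of at least 1 in another comparison. Bars are group means and whiskers SD of 3 replicates, each axis starts at 0, and NR4A1, VDR and NR1D1 were lower and NR2F1, NR5A2 and RORB higher in every sample with vemurafenib than in any without it.

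The thyroid hormone receptors are nuclear receptors that repress without hormone and activate with it. THRA samples had 35.1, 33.6 and 32.1 CPM in DMSO, 31.8, 32.0 and 27.2 in tretinoin, 51.3, 49.9 and 48.3 in vemurafenib, and 32.7, 38.7 and 37.4 in the combination. The vemurafenib samples stood above all others, and the combination range overlapped that of DMSO. THRA rose 1.48-fold with vemurafenib (0.57, SE 0.08, adjusted p = 1.97e-05). Its log2 fold change with the combination against DMSO was 0.11 (SE 0.08, adjusted p = 0.282), and adding tretinoin to vemurafenib lowered it 1.37-fold (-0.46, SE 0.08, adjusted p = 0.0019).

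THRB (chr3:24117153-24495756) samples had 9.09, 8.38 and 10.0 CPM in DMSO, 11.7, 10.3 and 10.7 in tretinoin, 17.3, 17.2 and 17.8 in vemurafenib, and 11.6, 12.7 and 13.2 in the combination. The vemurafenib samples again stood above all others, and the combination samples lay above DMSO but overlapped tretinoin. THRB rose 1.89-fold with vemurafenib (0.92, SE 0.10, adjusted p = 5.73e-07) and 1.36-fold with the combination (0.45, SE 0.10, adjusted p = 0.00126). Adding tretinoin to vemurafenib lowered it 1.39-fold (-0.47, SE 0.09, adjusted p = 0.00473), while tretinoin alone gave 0.24 (SE 0.11, adjusted p = 0.175). The difference between these tretinoin changes, the interaction of the drugs, was -0.72 (SE 0.14, adjusted p = 0.0204). Of the 27 genes, 0 were called with a higher interaction (0.382% of all tested genes). DESeq2 also called 0 higher, and 2 were higher at an unadjusted p below 0.05. THRB was the 1 gene called with a lower interaction (0.424% of all), with 6 lower at an unadjusted p below 0.05. The interaction passed in the fit to all samples and was lost without DMSO replicate 2 (adjusted p = 0.0646), vemurafenib replicate 1 (0.0547) or 2 (0.0553), or combination replicate 1 (0.0613) or 2 (0.0552).

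Of 7 thyroid hormone enzymes, transporter and target genes, 3 were tested, and with vemurafenib 1 rose (26.4% of all tested genes) and 2 fell (26.3% of all). DIO2, which activates thyroid hormone and had 1 to 11 counts in DMSO, was tested only through the groups in which it was high and rose (1.83, SE 0.48, adjusted p = 0.00366). KLF9, a target of thyroid hormone and glucocorticoid receptors, fell (-1.12, SE 0.09), and HR, a corepressor and thyroid hormone target, fell (-0.996, SE 0.07). KLF9 was 0.90 higher (SE 0.09, adjusted p = 2.63e-06) with the combination than with vemurafenib, and with tretinoin alone 0 of the 3 were called by edgeR and 1, lower, by DESeq2, with 1 higher and 1 lower at an unadjusted p below 0.05.

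PPARG (chr3:12287368-12434356), the fat-cell and lipid receptor, moved in opposite directions with the 2 drugs. DMSO samples had 66.3, 61.3 and 71.3 CPM and tretinoin samples 86.7, 91.1 and 84.0. Vemurafenib samples had 42.2, 34.7 and 35.8 CPM and combination samples 57.7, 67.6 and 68.2. The tretinoin samples were above and the vemurafenib samples below all others, and the combination range overlapped that of DMSO. PPARG rose 1.31-fold with tretinoin (0.40, SE 0.09, adjusted p = 0.0122) and fell 1.77-fold with vemurafenib (-0.82, SE 0.09, adjusted p = 6.21e-07). With the combination against DMSO the log2 fold change was -0.04 (SE 0.09, adjusted p = 0.724). Tretinoin raised it 1.72-fold in the presence of vemurafenib (0.78, SE 0.09, adjusted p = 1.84e-05), and the interaction of 0.39 (SE 0.12) did not pass the test (adjusted p = 0.169). The tretinoin call was lost without DMSO replicate 2 (0.34, adjusted p = 0.0862) or tretinoin replicate 2 (0.36, adjusted p = 0.0501). It was kept without tretinoin replicate 1 (0.40, adjusted p = 0.00567). PPARA and PPARD, the receptors of fat oxidation, had log2 fold changes between 0.05 and 0.24 against DMSO with SE of 0.12 to 0.17, and were not called.

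Of 10 PPAR targets, 8 were tested. With tretinoin 3 rose (3.48% of all tested genes) and 0 fell (2.2% of all) by edgeR, with 0 lower by DESeq2 or at an unadjusted p below 0.05, and the median log2 fold change of the 8 was 0.06. ANGPTL4, a lipoprotein lipase inhibitor, had 16.1, 18.8 and 19.3 CPM in DMSO and 57.6, 71.2 and 69.6 in tretinoin, against 0.312, 1.01 and 1.202 in vemurafenib and 2.26, 4.09 and 3.35 in the combination. The 4 groups did not overlap. ANGPTL4 rose with tretinoin (1.87, SE 0.15, adjusted p = 6.06e-07), fell with vemurafenib (-4.43, SE 0.24, adjusted p = 1.02e-10) and rose on adding tretinoin to vemurafenib (1.97, SE 0.31, adjusted p = 0.000503). PDK4, which restrains pyruvate oxidation, rose with tretinoin (1.10, SE 0.13) and with vemurafenib (0.62, SE 0.13). CPT1A, the carnitine transferase of fatty acid oxidation, rose with tretinoin (0.28, SE 0.07, adjusted p = 0.027). With vemurafenib 4 of the 8 rose (26.4% of all) and 2 fell (26.3% of all). The fatty acid transporter CD36 rose from 4 to 14 counts in DMSO to 86 to 125 (3.28, SE 0.37) and was tested only through the groups in which it was high, and the lipid droplet protein PLIN2 fell (-0.25, SE 0.06).

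NR2C1 and NR2C2 (TR2 and TR4), orphan receptors that bind direct repeats and compete with retinoid receptors for them, were the other genes called with tretinoin. NR2C1 samples had 20.8, 18.4 and 16.5 CPM in DMSO, 26.5, 23.6 and 22.3 in tretinoin, 18.7, 17.5 and 17.4 in vemurafenib, and 17.9, 20.2 and 21.1 in the combination. NR2C2 samples had 29.5, 30.8 and 33.2 CPM in DMSO, 51.5, 37.8 and 37.1 in tretinoin, 37.0, 36.4 and 31.9 in vemurafenib, and 31.6, 33.1 and 33.8 in the combination. For both genes the tretinoin samples lay above all others, with tretinoin replicate 1 the highest. NR2C1 rose 1.3-fold (0.38, SE 0.10, adjusted p = 0.0365) and NR2C2 1.34-fold (0.43, SE 0.11, adjusted p = 0.0279). Without tretinoin replicate 1 neither passed, NR2C1 at 0.31 (adjusted p = 0.0918) and NR2C2 at 0.26 (adjusted p = 0.0815). Without other single samples NR2C1 was lost for DMSO replicate 2 (0.122), DMSO replicate 3 (0.127) and tretinoin replicate 2 (0.0659), and NR2C2 for DMSO replicate 1 (0.085) and DMSO replicate 2 (0.106), all adjusted p. Of NR2C2's exon bases, 11.4% are shared with neighboring genes on the other strand.

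The LXR genes moved apart with vemurafenib. NR1H3 (LXR alpha) rose 1.45-fold (0.53, SE 0.13, adjusted p = 0.0027), and the far more abundant NR1H2 (LXR beta) fell 1.24-fold (-0.32, SE 0.08, adjusted p = 0.00256). With the combination the values were 0.73 (SE 0.13, adjusted p = 0.000153) and -0.30 (SE 0.08, adjusted p = 0.00314). NR1H2 was not called with either treatment when libraries were scaled by total counts alone (-0.12, adjusted p = 0.143, and -0.14, adjusted p = 0.0852). All 6 listed LXR targets were tested, and by edgeR 5 rose with vemurafenib (26.4% of all tested genes) and 0 fell (26.3% of all), with 0 lower by DESeq2 or at an unadjusted p below 0.05 and a median log2 fold change of 0.69. The cholesterol exporters ABCG1 (1.61, SE 0.26) and ABCA1 (1.29, SE 0.16) led. With tretinoin 3 rose (3.48% of all) and 1 fell (2.2% of all), and without tretinoin replicate 1 the risers were 2. ABCA1 rose by 0.84 on the log2 scale (SE 0.17, adjusted p = 0.00578). The phospholipid enzyme LPCAT3 (0.54, SE 0.14, adjusted p = 0.0277) and the lipogenic factor SREBF1 (0.35, SE 0.07, adjusted p = 0.00773) also rose. MYLIP, which degrades the LDL receptor, fell (-0.58, SE 0.13, adjusted p = 0.0159).

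ESRRA fell 1.74-fold with vemurafenib (-0.80, SE 0.10, adjusted p = 2.87e-06) and 1.89-fold with the combination (-0.92, SE 0.10, adjusted p = 5.25e-07). Of its exon bases, 9.37% are shared with TRMT112 on the other strand. NR6A1 (germ cell nuclear factor) was called with the combination (0.69, SE 0.17, adjusted p = 0.00188) and had 0.15 (SE 0.17) with vemurafenib. NR1I3, the xenobiotic receptor CAR, was not called, with a log2 fold change of -0.42 (SE 0.34) with vemurafenib. With the combination it was -0.77 (SE 0.35, adjusted p = 0.0689), and the combination samples lay below all DMSO samples. The ratio of its summed counts there was 0.58, with an exact 95% interval for counting error only of 0.356 to 0.935. Of NR1I3's exon bases, 20% are shared with TOMM40L on the other strand.

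Nuclear receptors act through coregulators, and 16 coactivator genes and 8 corepressor genes were all tested. With vemurafenib 5 coactivators rose (26.4% of all tested genes) and 2 fell (26.3% of all), with a median log2 fold change of 0.13. PNRC1 rose (1.83, SE 0.09) and NCOA2, a p160 coactivator, rose (1.04, SE 0.11), while PPARGC1B (PGC-1 beta) fell (-1.48, SE 0.11) and its relative PPRC1 fell (-0.98, SE 0.08). PGC-1 beta is a partner of ESRRA in mitochondrial gene control. With tretinoin 0 of the 16 were called by edgeR and 0 by DESeq2, with 5 higher and 0 lower at an unadjusted p below 0.05.

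Of the corepressors, 2 rose with tretinoin (3.48% of all), among them NRIP1. NRIP1 (RIP140), a retinoid-inducible corepressor, had 48.0, 52.8 and 57.3 CPM in DMSO and 143.4, 101.6 and 98.9 in tretinoin (1.12, SE 0.12, adjusted p = 1.73e-05). NRIP1 also rose on adding tretinoin to vemurafenib (1.17, SE 0.12, adjusted p = 6.65e-06). With vemurafenib 1 fell (26.3% of all), TBL1X (-0.66, SE 0.09), and 0 rose (26.4% of all) by edgeR, by DESeq2 or at an unadjusted p below 0.05.

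**Figure D4:**
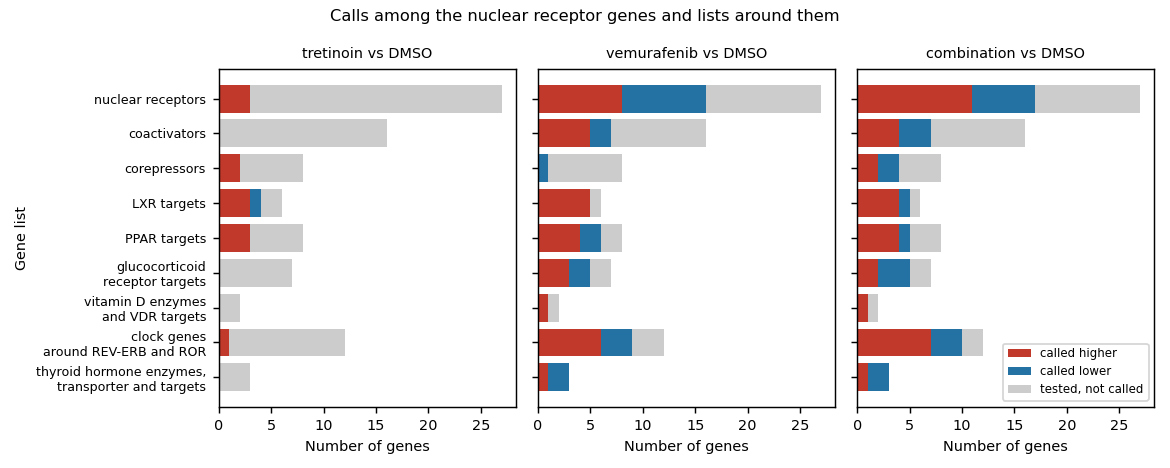
Number of genes called higher, called lower or tested and not called among the nuclear receptor genes and 8 lists of coregulators, targets and clock genes, for each treatment against DMSO. With tretinoin 3 of 27 receptor genes were called (5.68% of all tested genes). The lists ran from 0 called, as for the 16 coactivators, to 4 of 6 LXR targets. With vemurafenib 16 of 27 receptor genes were called (52.6% of all), and the lists ran from 1 of 8 corepressors to 3 of 3 tested thyroid hormone genes.

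Adding tretinoin to vemurafenib changed 5 of the 27 receptor genes: NR5A2 and PPARG rose (2.27% of all tested genes rose), and NR4A1, THRB and THRA fell (2.2% of all fell). The median log2 fold change of the 27 was 0.01, against 0.00 over all tested genes. Adding vemurafenib to tretinoin raised 8 genes (24.1% of all) and lowered 8 (25.0% of all), with a median of -0.03 against 0.02 over all. The risers include NR3C2 and NR5A2, which had under 10 counts in at least 1 sample. Among genes with at least 10 counts in every sample, a filter that neither passes, 8 rose and 8 fell. The extremes of that comparison were NR5A2 (2.32, SE 0.21, adjusted p = 9.35e-08) and NR4A1 (-2.02, SE 0.09, adjusted p = 4.31e-12). Among the genes lowered were NR2C1 (-0.28, SE 0.10, adjusted p = 0.0242) and NR2C2 (-0.35, SE 0.11, adjusted p = 0.011). Both calls were lost without tretinoin replicate 1 (adjusted p = 0.0797 and 0.0639).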

How the data were processed

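RNA-seq was done on poly(A) libraries from A375 cells, 3 replicates in each of 4 treatment groups. The authors aligned reads to GRCh38.p10 with STAR 2.5.3a and deposited raw counts of fragments per GENCODE gene, counted in union mode with the strand ignored, so fragments on bases shared by overlapping genes are lost. The counts were not normalized. Whether replicates were separate cultures is not stated beyond triplicate treatments, so p-values measure the spread between these samples. Total counts were 13510235 to 21534377 per sample.

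Symbols, positions and exon lengths came from GENCODE 29 (58039 of 58347 genes matched). Genes were filtered with filterByExpr by group (16740 kept) and scaled by TMM. A quasi-likelihood model with a term per group was fitted to all 12 samples in edgeR 4.0.16 (R 4.3.3). Benjamini-Hochberg adjustment of p-values ran over all tested genes, with a threshold of 0.05. SE is the log2 fold change divided by the square root of F. The interaction is the log2 fold change of the combination against vemurafenib minus that of tretinoin against DMSO. CPM are counts scaled to a common library size with TMM factors. The model was also run on data simulated from its own fitted spread with few genes changed, which cannot test the scaling. The outcome is not reported here. Alternatives were DESeq2 1.42.0, other scalings and filters, a replicate block and leaving out each sample. Ratios of summed counts have exact intervals for counting error only.

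The receptor genes and the lists were chosen with earlier results of these data known. Values in every sample are given for genes called with tretinoin, on adding tretinoin to vemurafenib or in the interaction, or called with an absolute log2 fold change of at least 1 elsewhere. For each list, up to 2 of the largest called rises and falls with vemurafenib and every gene called with tretinoin are named, except 1 corepressor gene that is not reported here. A few further genes (ARNTL, CYP27B1, CYP24A1, and KLF9, ANGPTL4 and NRIP1 in the combination) were named after their values were seen. Promoters are from RefSeq (GRCh38.p14). Exons were compared with other genes by blastn 2.17.0, and outside overlapping genes no tested receptor shared a stretch of 150 bases at 98% identity. Marker lists covered melanocytes and other cells.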

Additional observations from a re-analysis of the deposited data

Results flagged for a closer look

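THRB, NCOA2 and KLF9 had tretinoin changes that differed between cells with and without vemurafenib, by the interaction test in edgeR. Over all tested genes, 0.806% were called in it. THRB had an interaction of -0.72 (SE 0.14, adjusted p = 0.0204), with 0.24 for tretinoin alone and -0.47 for tretinoin added to vemurafenib. The coactivator gene NCOA2 had -0.67 (SE 0.15, adjusted p = 0.0451), with 0.28 alone and -0.39 on top of vemurafenib. KLF9, a zinc finger gene among the thyroid hormone targets, had 0.70 (SE 0.12, adjusted p = 0.00797), with 0.20 alone and 0.90 on top of vemurafenib. The THRB call was lost in 5 of the fits that left out 1 sample. For NCOA2 and KLF9 the interaction was not checked under the alternatives.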

How the results depend on the processing

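Of 58 calls among the receptor genes, 44 were kept under every alternative in which their gene was tested. Of 809 alternative values, 46 lost the call and 0 changed direction. The filter on 10 counts in every sample removed NR5A2, NR3C2 and HNF4G, so their calls were not tested under it. The count of genes higher with tretinoin, 3 in the report, was 1 with the replicate block, 1 in a fit to the compared groups only, and 0 to 4 when single samples were left out. The lowest was without DMSO replicate 2, and it was 1 without tretinoin replicate 2. The count lower with tretinoin, 0 in the report, was 1 with DESeq2, 2 at an adjusted p below 0.1 and 0 to 1 when single samples were left out (1 without tretinoin replicate 1). The count higher with vemurafenib, 8, was 13 when scaled by total counts alone. The count higher on adding tretinoin to vemurafenib, 2, was 1 when at least 10 counts were required in every sample, a filter that NR5A2 does not pass, and 4 in a fit to the compared groups only. The count with a lower interaction, 1, was 2 without a filter and 0 to 1 when single samples were left out, with 0 without DMSO replicate 2, vemurafenib replicate 1 or 2, or combination replicate 1 or 2. Apart from the filter on 10 counts, the cause of these changes was not tested.

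Equal replicate numbers did not go with shared deviations from the group means (mean correlation -0.031 over 18 pairs, with 0 above 0.1), so the replicate block pairs samples by number only. It kept 55 of 58 calls and lost NR2C1 and NR2C2 with tretinoin and RORA with the combination. Scaling by total counts alone moved the median of all genes by 0.20 (log2) with vemurafenib, 0.16 with the combination and -0.10 in the interaction. The percentage of called genes that were higher went from 61.3 to 81.3 with tretinoin, 50.1 to 71.4 with vemurafenib, 50.5 to 68.2 with the combination, 49.0 to 60.7 against tretinoin and 47.4 to 21.4 in the interaction. Among the receptor genes that scaling gave 13 higher and 6 lower with vemurafenib and 13 higher and 5 lower with the combination. Depth limits NR3C2, NR5A2, HNF4G and NR1I3, which had under 10 counts in at least 1 sample, and the 12 untested genes.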
